A study of Mus musculus with 10 samples.

Results

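The 7 arrays of SWI/SNF mutant cells were treated as 1 group and set against 3 arrays of wild type cells, which together are all 10 arrays of the series. The mutant group held 3 Snf5-/- and 4 Brg1-/- arrays, chosen by the genotype in the sample labels, and each genotype had equal weight. The question was which genes respond alike to loss of either subunit, and in which genes every mutant array lay on 1 side of every wild type array. All samples were primary mouse embryonic fibroblasts (MEFs, cultured from the body of the embryo) from E13.5 embryos (mid-gestation) on a mixed C57BL/6 and 129 background. The labels give 1 treatment for every sample, wild type included: a retrovirus brought in Cre recombinase, and puromycin at 2.5 ug/ml selected the infected cells. The labels name no allele beyond wild type, Snf5-/- and Brg1-/-, and give neither the sex nor the number of embryos behind a culture. No label says that replicates came from separate embryos or cultures, so p-values measure only the spread between these arrays, which may be technical. In cells measured in bulk, fewer cells of a type and less RNA per cell cannot be told apart.

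SWI/SNF (BAF) complexes use the energy of ATP to slide and evict nucleosomes and so change access to promoters and enhancers. Brg1, the product of Smarca4, is the ATPase that drives the complex in most cells, and Snf5, the product of Smarcb1, is a core subunit that is lost in rhabdoid tumours. Fibroblasts use the complex at cell cycle genes, at inducible genes of the serum and interferon responses, and at enhancers bound by AP-1 factors.

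Values were MAS5 intensities of 22690 probe sets, and 8397 of the 12393 genes on the array passed a filter on brightness and were tested. The targeted genes came first as a check of the labels. Smarcb1 had intensities of 1119, 844.3 and 890.5 on the 3 wild type arrays, 279.5, 279.4 and 331.0 on the Snf5-/- and 808.0, 825.9, 931.5 and 1030.1 on the Brg1-/- arrays, so only the Snf5-/- arrays were low. Smarca4 had 3828, 2443 and 2275 on the 3 wild type arrays, 2833, 2424 and 3162 on the Snf5-/- and 387.0, 389.9, 417.5 and 607.0 on the Brg1-/- arrays, so only the Brg1-/- arrays were low. The log2 change was -1.37 for Smarcb1 in Snf5-/- (adjusted p = 1.97e-05) and -2.10 for Smarca4 in Brg1-/- cells (adjusted p = 2.24e-06). Whether either probe set lies in a deleted exon was not tested. The median intensity of every mutant array was below that of every wild type array, with a mean difference of -0.35 on the log2 scale (exact permutation test, two-sided, p = 0.0167, the smallest that 120 splits can give, 0.0667 after Benjamini-Hochberg adjustment over 4 measures). The spiked hybridization controls differed by -0.02 (exact p = 0.717), and the 3' to 5' log2 difference of Gapdh, a sign of RNA quality, was 0.12 higher in mutants (exact p = 0.05, adjusted 0.1). A drop of most transcripts and a dimmer array cannot be told apart, so each result was computed on quantile-normalized log2 values and on the deposited log2 values, and "rose" and "fell" are used of genes that passed the test on both. Log2 changes, folds and adjusted p are on the quantile-normalized scale unless the deposited scale is named, and intensities of single arrays are as deposited. All 16 fibroblast markers on the array were bright enough to be tested, with a summed intensity of 130421 to 141592 on wild type, 123769 to 144144 on Snf5-/- and 89390.2 to 112257 on Brg1-/- arrays. On the quantile-normalized scale the sums were 113920 to 127183, 128176 to 137088 and 97959.2 to 125741. There all Snf5-/- arrays lay above wild type and the Brg1-/- arrays overlapped it, so the order depended on the scale. Transcripts of the sex chromosomes, looked at after their values were seen, also differed. Uty, encoded on the Y chromosome, had 176.1, 206.5 and 143.9 on wild type, 61.3, 55.7 and 143.1 on Snf5-/- and 57.1, 49.9, 50.4 and 40.6 on Brg1-/- arrays, and Eif2s3y, also on the Y chromosome, had 290.2, 255.4 and 189.2, 79.2, 49.6 and 144.7 and 149.3, 85.7, 128.6 and 55.1. For both, all 3 wild type arrays lay above all 7 mutant arrays in intensity, so genotype and the mix of male and female cells cannot be told apart in any result below.

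In the pooled contrast 1290 genes were higher (15.4%) and 986 lower (11.7%) in the mutants at an adjusted p under 0.05 on the quantile-normalized scale (limma, two-sided, Benjamini-Hochberg over 8397 genes). On the deposited scale 332 were higher (3.95%) and 3144 lower (37.4%), so the share of calls that were higher went from 56.7% to 9.55% with the scaling. The median log2 change of all genes was 0.02 on the first scale and -0.37 on the second. Both scales called 330 genes higher (3.93%) and 986 lower (11.7%). Leaving out wild type array 1, 2 or 3 lowered the 986 lower calls of the quantile-normalized scale to 639, 637 and 609, and leaving out wild type array 3 lowered the 1290 higher calls to 826.

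The common response was defined as genes that passed on both scales and in which, on both scales, all 7 mutant arrays lay on the same side of all 3 wild type arrays. It held 165 genes that rose (1.96% of genes tested) and 750 that fell (8.93%). These were 50% of the rises and 76.1% of the falls called on both scales. The median pooled log2 change was 1.49 (range 0.82 to 5.63) for the rises and -0.65 (range -4.38 to -0.14) for the falls. In 121 of the 165 rises and 139 of the 750 falls, each genotype by itself changed by more than 1 on the log2 scale, and in 10 and 4 by more than 3. The median log2 level in wild type cells was 7.62 for the genes that rose, 9.81 for those that fell and 8.83 for all genes tested. The genes were chosen on these values, so counts, sizes and levels are a description with no test of their own. A gene dim in wild type could enter only through mutant arrays where it was bright, and a gene dim in the mutants only through the 3 wild type arrays. On the deposited scale, shifted down, only larger rises and also smaller falls could pass. Without wild type array 1 the definition gave 281 rises, among them 152 of the 165, and 603 falls.

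**Figure D1:**
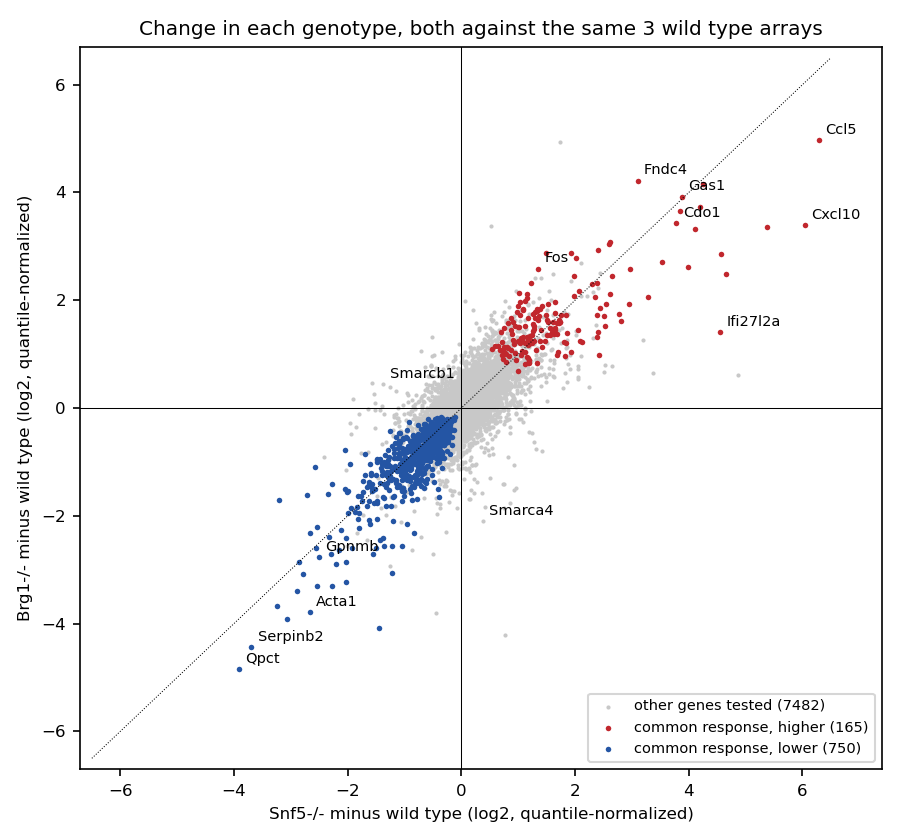
Log2 change in Snf5-/- (x axis) and Brg1-/- cells (y axis) against wild type for the 8397 genes tested, on the quantile-normalized scale. The 165 rises of the common response are red, the 750 falls blue and the other 7482 genes grey, and the dotted line marks equal change. Both axes share the 3 wild type arrays, so the values of a gene on them are not independent; Smarcb1 and Smarca4, each deleted in 1 genotype, lie off it.

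Among the 15 rises with the largest smaller change of the genotypes, interferon-induced and chemokine genes stood beside genes of surface and secreted proteins. Gas1, a surface protein that binds Hedgehog ligands and is known for high expression in growth-arrested fibroblasts, had 562.7, 361.4 and 311.6 on the 3 wild type arrays, 5024, 2653 and 8895 on the Snf5-/- and 2737, 3839.8, 4695 and 5908 on the Brg1-/- arrays. Every mutant array was several times brighter than the brightest wild type array, and the pooled log2 change was 3.90 ± 0.28 (SE; adjusted p = 3.07e-06). No difference between the genotypes passed for Gas1, with a value of 0.04 on the log2 scale and a 95% interval from -0.63 to 0.70. Cdo1, the dioxygenase that starts the breakdown of cysteine, had 188.6, 151.0 and 152.7 on the 3 wild type arrays, 2121, 1284 and 2496 on the Snf5-/- and 1606, 1214, 1369 and 956.2 on the Brg1-/- arrays. It had the smallest adjusted p of the 15 (7.46e-07, log2 change 3.60 ± 0.18), and the groups lay far apart. Medag, a gene of fat cell precursors, had 162.6, 223.8 and 202.2 in wild type, and the lowest, middle and highest mutant arrays had 744.3, 1121 and 1722. Its log2 change was 2.85 ± 0.22, with 2.61 in Snf5-/- and 3.08 in Brg1-/- cells.

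Several of the strongest rises started from background in wild type cells. Background was read from 27 probe sets for Bacillus subtilis transcripts and lay between 26.7 and 57.4. Ccl5, a chemokine that attracts T cells and monocytes, had 9.6, 6.7 and 9.6 in wild type, all below background, 238.2, 1708 and 455.2 in Snf5-/- and 150.5, 209.3, 204.9 and 271.3 in Brg1-/- cells. It was at least 12.2-fold higher in the mutants, counted against the background of the wild type arrays. Cxcl11, a ligand of the receptor Cxcr3, and Rsad2, an antiviral enzyme, were at background in all 3 wild type arrays and at least 5.44-fold and 5.58-fold higher. Wnt16, Fndc1, Kcnk1, Sgo1, Cxcl10 and Oasl2 were at background in 2 of the 3 wild type arrays, so the size of their changes (4.20, 3.97, 3.75, 2.82, 4.72 and 3.72 on the log2 scale) rests on values near background. Agtr2, the type 2 angiotensin receptor, had 32.7, 30.2 and 37.4 in wild type and 144.6, 307.5 and 1328 in the lowest, middle and highest mutant arrays (log2 change 3.71 ± 0.39). Fndc4, a secreted fibronectin domain protein, had 80.4, 13.3 and 61.9 on the 3 wild type arrays, 275.6, 230.3 and 401.6 on the Snf5-/- and 522.4, 432.4, 631.3 and 692.7 on the Brg1-/- arrays (log2 change 3.66 ± 0.41). The remaining members of the 15 were the interferon-induced Cxcl10, Oasl2 and Rtp4. All 15 passed at adjusted p between 7.46e-07 and 0.00739 on the quantile-normalized scale. Genes at background in any wild type array, Agtr2 and Fndc4 included, passed the brightness filter only with mutant arrays, where they were high. For these genes the adjusted p is no independent support for the rise. The cut lies inside a continuum: Sgo1, the last of the 15, changed by 2.59 in its less changed genotype, and C1ra, the next gene, by 2.58.

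**Figure D2:**
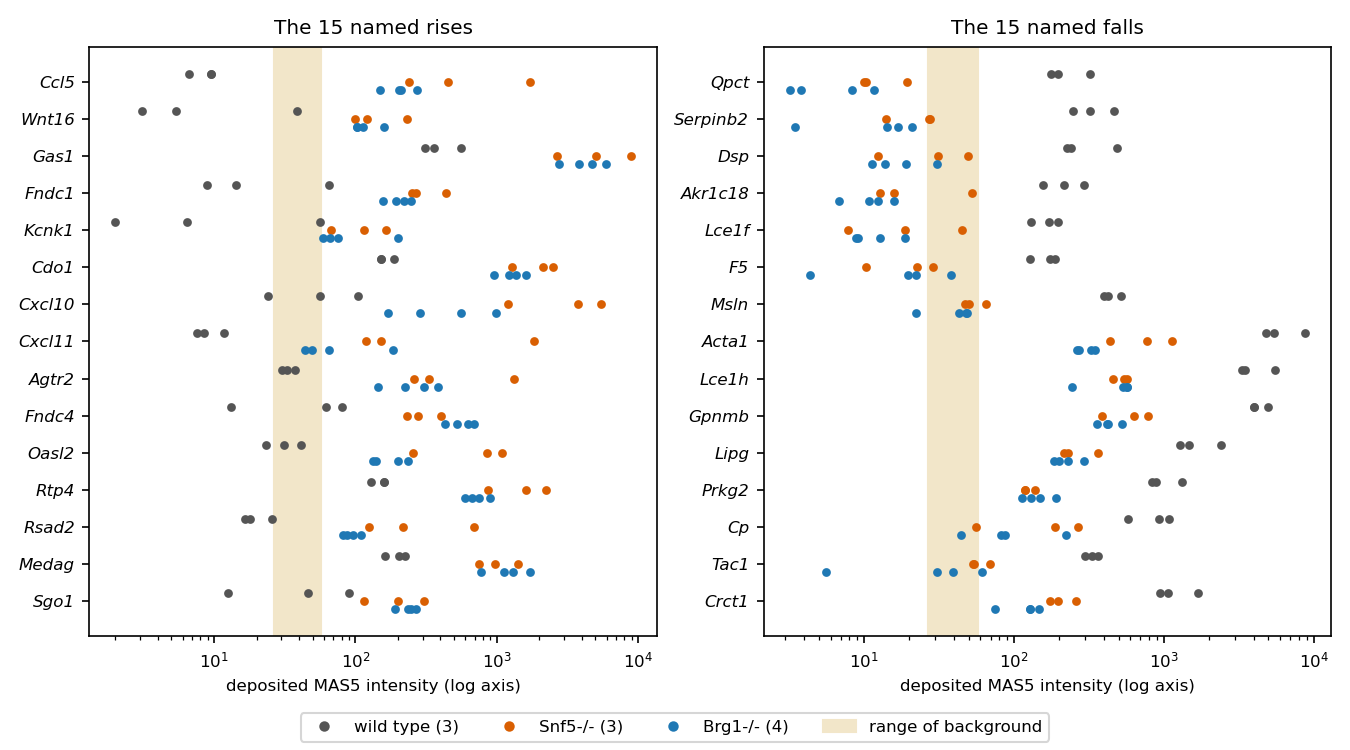
Deposited MAS5 intensity (x axis, log scale) of the 15 named rises (left) and 15 named falls (right) on each array, 1 point an array, in order of the smaller change of the genotypes. The shaded band is the range of background over the arrays, 26.7 to 57.4. For every gene the 3 wild type points lie on 1 side of the 7 mutant points, and for several, such as Ccl5, Cxcl11, Rsad2 and Qpct, 1 side lies below the band.

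The 15 falls held genes of barrier epithelia, secreted proteins and muscle actin. Gpnmb, a membrane glycoprotein of lysosome-rich cells, had 4943, 3984 and 3978 on the 3 wild type arrays, 387.0, 634.7 and 783.7 on the Snf5-/- and 529.8, 357.4, 419.9 and 427.6 on the Brg1-/- arrays. The highest mutant array was well below the lowest wild type array, and Gpnmb fell by 2.64 on the log2 scale (SE 0.17, 6.22-fold, adjusted p = 1.42e-06). Prkg2, the cGMP-dependent protein kinase II, had 1322, 889.2 and 834.6 on the 3 wild type arrays, 139.6, 119.1 and 118.1 on the Snf5-/- and 113.1, 130.7, 148.7 and 190.5 on the Brg1-/- arrays. The mutant arrays formed a narrow group, and Prkg2 had the smallest adjusted p of these 15 falls (1.09e-06, log2 change -2.50 ± 0.15). Acta1, skeletal muscle actin, had 8808, 5455 and 4794 on the 3 wild type arrays, 778.0, 1135 and 439.8 on the Snf5-/- and 345.9, 329.4, 263.0 and 271.3 on the Brg1-/- arrays. It fell by 9.37-fold, with a log2 change of -3.23 ± 0.27, and the Brg1-/- arrays lay below the Snf5-/- arrays (difference -1.12, adjusted p = 0.054).

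Lipg, endothelial lipase, had 2422, 1292 and 1475 in wild type and 185.9, 230.1 and 362.9 in the lowest, middle and highest mutant arrays (log2 change -2.36 ± 0.20). Qpct, which makes pyroglutamate at the ends of peptides, and Serpinb2, the type 2 inhibitor of plasminogen activators, were at background in all 7 mutant arrays. Qpct had 323.1, 178.0 and 198.8 in wild type and was at least 4.11-fold lower, and Serpinb2 had 463.1, 322.2 and 250 and was at least 6.08-fold lower. Akr1c18, which reduces progesterone, Lce1f, F5 (coagulation factor V) and the desmosomal protein Dsp were at background in 6 of the 7 mutant arrays. Lce1h and Crct1, both of the epidermal differentiation complex, had 5499, 3474 and 3342 and 1701, 951.2 and 1068 in wild type, and 244.7, 546.4 and 572.4 and 75.2, 147.2 and 259.9 in the lowest, middle and highest mutant arrays. Cp (ceruloplasmin, the copper carrier of plasma) changed by -2.50 ± 0.49 and Tac1 (the precursor of substance P) by -2.79 ± 0.58, with 4 of 7 mutant arrays at background for Tac1 and 1 for Cp. All 15 passed, at adjusted p between 1.09e-06 and 0.0208. Those at background in 6 or 7 mutant arrays passed the brightness filter only with the wild type arrays, where they were high. Their adjusted p is thus no independent support for the fall. Tac1 and Msln, another of the 15, lay below the median intensity of every mutant array and above that of every wild type array. The same caution applies to their adjusted p. Qpct, Lce1f and F5 lost significance without any 1 of the wild type arrays and Akr1c18 without wild type array 2 (adjusted p up to 0.12). Crct1, the last of the 15, changed by -2.20 in its less changed genotype, and the next gene, Mapk13, by -2.20.

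**Figure D3:**
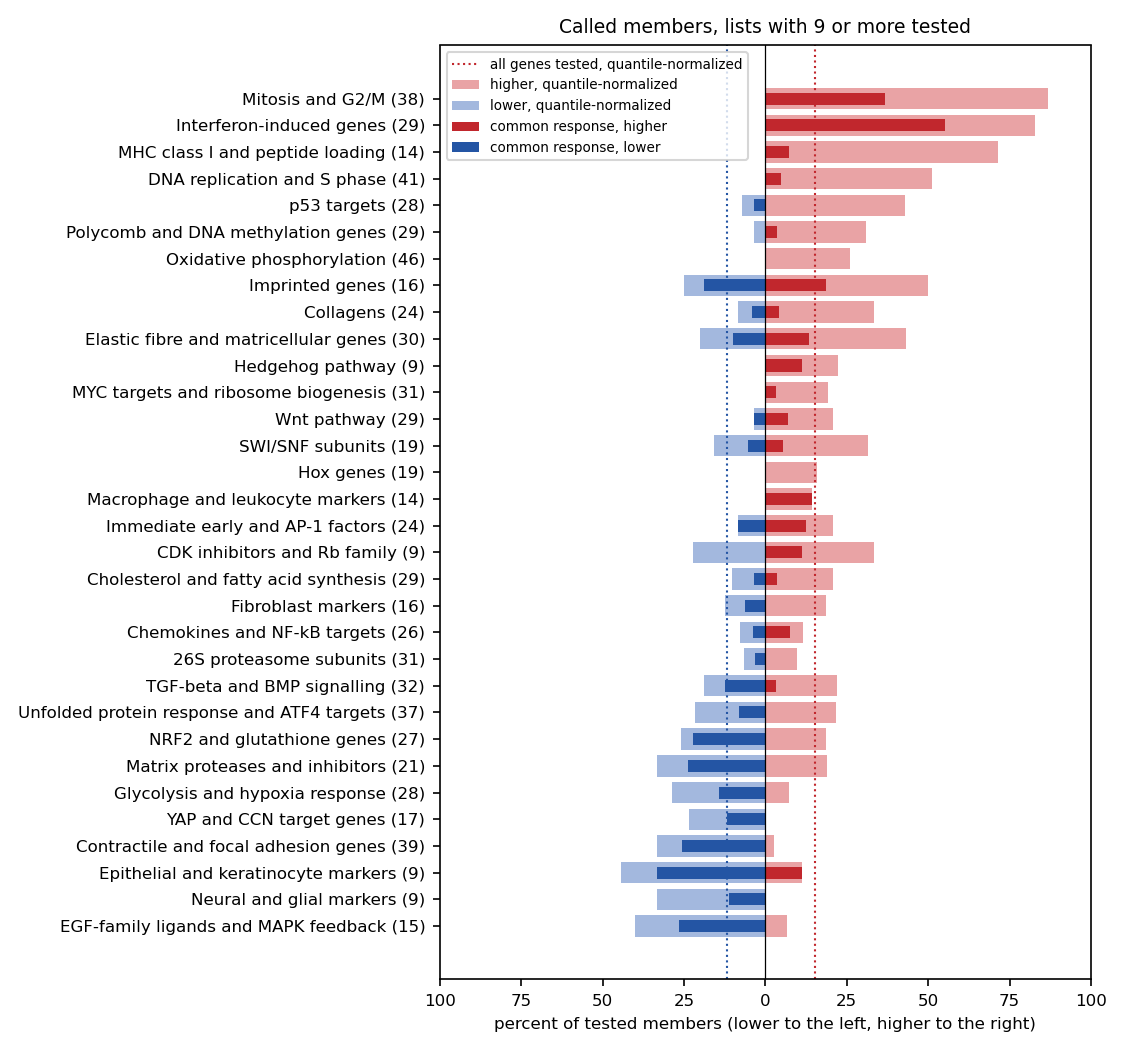
Percent of tested members (x axis) called higher, to the right, or lower, to the left, in the pooled contrast, for gene lists with at least 9 tested members (number tested in brackets). Pale bars are calls on the quantile-normalized scale, dark bars the common response, and dotted lines the shares of all genes tested, 15.4% higher and 11.7% lower. Mitosis and interferon genes reach furthest to the right.

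Genes of mitosis were higher in the mutants almost throughout. Of 38 tested members of a list of G2 and M phase genes, 33 were higher and none lower on the quantile-normalized scale, and 25 rose on both scales. Beside this stand 15.4% and 3.93% of all genes. The median log2 change was 1.03, with 0.68 in Snf5-/- and 1.40 in Brg1-/- cells, and the common response held 14 members (37 lists of genes were counted in all). These 14 were Cdk1, the kinase that starts mitosis, the spindle checkpoint kinase Bub1b, the activators and enzymes of the anaphase-promoting complex pathway Cdc20 and Ube2c, the kinases Plk1 and Aurkb with its partner Incenp, Top2a, Ncapd2, Kif11, Cenpa, Cenpe, Nusap1 and Cks2. Ube2c had 761.2, 701.7 and 525.9 on the 3 wild type arrays, 1210.1, 992.3 and 1119 on the Snf5-/- and 1616, 1910.1, 2005 and 1620.3 on the Brg1-/- arrays. The 3 groups did not overlap, and the order was wild type, Snf5-/- and Brg1-/- (pooled log2 change 1.49 ± 0.11, adjusted p = 3.46e-06, Brg1-/- minus Snf5-/- 0.94, adjusted p = 0.00234). Top2a, the topoisomerase that untangles chromosomes, had 752.1, 775.0 and 585.7 on the 3 wild type arrays, 1348, 931.6 and 1429.9 on the Snf5-/- and 1426, 1991, 2016 and 1599 on the Brg1-/- arrays (log2 change 1.45 ± 0.14). Top2a was not called with the mean over its probe sets (adjusted p = 0.0935). Bub1b rose most, by 2.41, with 1.93 in Snf5-/- and 2.88 in Brg1-/- cells. In 22 of the 38 members Brg1-/- and Snf5-/- cells differed, beside 4.44% of all genes tested, but on the deposited scale 6 did. With any 1 array left out, 30 to 36 members were higher, and the median stayed between 0.96 and 1.13.

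Mitotic genes are known for promoters that carry a CHR element, read by the DREAM and B-MYB complexes, often near CCAAT boxes bound by NF-Y. Promoter windows of 300 bases, from 250 before to 50 after the transcription start, were taken from RefSeq annotation (GRCm38.p6) and matched 6842 of the 8397 tested genes. The letters TTTGAA, on either strand, were in 25 of 33 windows of the tested mitosis genes (75.8%), in 11.6% of windows of all tested genes and in 17.9% of all windows. CCAAT, on either strand, was in 78.8% of the mitosis windows and 37.1% of the windows of tested genes. Over the whole common response TTTGAA was in 18.9% of windows of genes that rose and 10.6% of windows of genes that fell. The following 3 windows show the element, in capitals, in mitotic genes of the common response; 2 copies stand in Cdk1. They lie at chr2:118597961-118598260 (plus strand) for Bub1b, chr10:69352863-69353162 (minus strand) for Cdk1 and chr4:118437294-118437593 (minus strand) for Cdc20, and are given 5′ to 3′ along the gene.
Bub1b: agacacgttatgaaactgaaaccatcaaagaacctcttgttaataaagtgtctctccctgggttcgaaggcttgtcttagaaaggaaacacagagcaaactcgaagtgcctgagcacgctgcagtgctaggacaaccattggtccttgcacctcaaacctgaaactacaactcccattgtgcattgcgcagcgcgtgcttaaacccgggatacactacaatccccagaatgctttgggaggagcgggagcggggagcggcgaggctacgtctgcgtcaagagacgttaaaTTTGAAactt
Cdk1: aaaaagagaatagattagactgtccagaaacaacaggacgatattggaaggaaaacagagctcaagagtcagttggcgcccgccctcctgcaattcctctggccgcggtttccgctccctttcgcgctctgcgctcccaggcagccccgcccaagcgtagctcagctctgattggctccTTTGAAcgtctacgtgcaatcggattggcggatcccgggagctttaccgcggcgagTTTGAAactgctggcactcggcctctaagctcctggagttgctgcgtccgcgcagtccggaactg
Cdc20: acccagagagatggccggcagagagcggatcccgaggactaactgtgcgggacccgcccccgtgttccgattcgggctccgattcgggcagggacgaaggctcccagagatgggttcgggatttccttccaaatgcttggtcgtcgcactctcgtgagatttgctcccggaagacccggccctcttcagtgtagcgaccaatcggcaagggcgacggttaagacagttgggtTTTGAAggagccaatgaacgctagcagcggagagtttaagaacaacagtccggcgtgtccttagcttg

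S phase genes were higher on the quantile-normalized scale in 21 of 41 tested members, with none lower, but 8 rose on both scales and 2 belonged to the common response. Of all genes 15.4% were higher on the first scale, 3.93% rose on both and 1.96% rose in the common response. The median log2 change of the S phase genes was 0.43, and 0.02 on the deposited scale. The 2 were Cdc45, part of the replicative helicase, and Prim2, the large primase subunit. Prim2 had 265.6, 277.9 and 186.4 in wild type and 293.4, 337.8 and 419.0 in the lowest, middle and highest mutant arrays, a small step (log2 change 0.82 ± 0.14) without overlap. Pold1 and Pold2, subunits of DNA polymerase delta, changed by 0.89 and 1.18 and were higher in Brg1-/- than in Snf5-/- cells (differences of 0.78 and 1.20, adjusted p = 0.00601 and 0.00537, and 0.0544 and 0.00838 on the deposited scale). E2F sites (TTTCCCGC or TTTGGCGC, on either strand) were in 24.4% of windows of S phase genes and 3.03% of windows of tested genes. In the 100 bases before the start the shares were 2.44% and 1.09%. Among inhibitors of the cell cycle Cdkn2c, which blocks Cdk4 and Cdk6, rose in the common response, from 240.2, 253.7 and 193.2 in wild type to 311.6, 603.6 and 945.3 in the lowest, middle and highest mutant arrays (log2 change 1.73 ± 0.22). Cdkn1c fell, by 0.98 on the log2 scale (adjusted p = 0.00201), with -0.22 in Snf5-/- and -1.74 in Brg1-/- cells, and lost significance when the 7 mutant arrays were weighted equally (adjusted p = 0.0848).

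Genes induced by interferon were the other group that rose together. Of 29 tested members 24 were higher and none lower, 22 rose on both scales and 16 belonged to the common response, beside 15.4%, 3.93% and 1.96% of all genes. The median log2 change was 1.59, and here Snf5-/- cells had the larger change (2.09, against 0.98 in Brg1-/- cells). The 16 covered the transcription factors Irf1, Irf7, Irf9 and Stat2, which carry the signal, the antiviral effectors Ifit1, Oas1a, Oasl2, Rsad2 and Rtp4, the GTPases Gbp3 and Igtp, the brake Usp18, the chemokine Cxcl10, and Ifi35, Ifi27l2a and Parp14. Irf9, the DNA-binding subunit of the factor ISGF3, had 245.2, 232.6 and 163.9 on the 3 wild type arrays, 426.3, 583.2 and 647.6 on the Snf5-/- and 361.3, 419.5, 389.2 and 456.3 on the Brg1-/- arrays. All mutant arrays lay above all wild type arrays (log2 change 1.51 ± 0.14, adjusted p = 2.03e-05, difference -0.26 with a 95% interval from -0.60 to 0.09). Rtp4 had 129.2, 160.0 and 158.9 on the 3 wild type arrays, 865.9, 2229.9 and 1603 on the Snf5-/- and 601.0, 902.7, 753.0 and 664.5 on the Brg1-/- arrays (log2 change 3.12 ± 0.25, adjusted p = 8.51e-06). Cxcl10, a chemokine for activated T cells, had 24.2, 104.4 and 55.8 on the 3 wild type arrays, 1207, 5454 and 3731 on the Snf5-/- and 992.6, 170.9, 288.9 and 561.9 on the Brg1-/- arrays. All mutant arrays were above all wild type arrays, but the Brg1-/- change was smaller (difference -2.65, adjusted p = 0.0439). The same order held in Ifit1, with 87.6, 107.5 and 145.0, 795.4, 5420.3 and 3119 and 297.6, 558.7, 480.1 and 584.9 (difference -2.18, adjusted p = 0.0331), and in Ifi27l2a (difference -3.14, adjusted p = 0.00486), whose wild type arrays were at background.

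In 15 of the 16 interferon genes of the common response Snf5-/- array 2 was the highest of the 10 arrays on the quantile-normalized scale. With any 1 array left out 19 to 24 members were higher, and without Snf5-/- array 2 the median was 1.41 with 23 higher. Macrophage and leukocyte markers moved in part with this array. Their summed intensity over 18 markers was 4414.0 to 7549.3 on wild type, 3466.3 to 12619.1 on Snf5-/- and 2826.1 to 5789.6 on Brg1-/- arrays, and the highest value belonged to Snf5-/- array 2. Of 14 tested markers 2 were higher and none lower, beside 15.4% and 11.7% of all genes. The median log2 change of the markers was 0.27, which became 0.01 without that array. The 2 were C1qb and C1qc, subunits of the first complement component, both in the common response, though C1qc was lost without any 1 of the wild type arrays. C1qb had 75.5, 54.7 and 91.1 on the 3 wild type arrays, 120.3, 361.9 and 237.9 on the Snf5-/- and 210.4, 119.8, 135.1 and 124.7 on the Brg1-/- arrays (log2 change 1.62 ± 0.33, adjusted p = 0.00398). Csf1r, the receptor that defines macrophages, differed from wild type by 0.09 (adjusted p = 0.869) and Lyz2, lysozyme of myeloid cells, by -0.10 (adjusted p = 0.913). The part of such cells in the rise of Brg1-/- arrays and of C1qb was not tested.

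Interferon-induced promoters are known for a response element that repeats GAAA, to which ISGF3 and other IRF proteins bind. GAAA, any 2 bases and GAAA again, on either strand and with overlapping matches allowed, was in 14 of 27 windows of the tested interferon genes (51.9%) and 3.10% of windows of all tested genes. Of the genes in the common response 8.54% of windows of those that rose and 2.58% of those that fell held it. Windows of 3 members of the common response follow, with matches in capitals, a match on the opposite strand reading TTTC, any 2 bases and TTTC. They lie at chr12:26456403-26456702 (minus strand) for Rsad2, chr19:34640639-34640938 (plus strand) for Ifit1, where 2 matches stand close together, and chr3:142559794-142560093 (plus strand) for Gbp3, where 2 matches overlap.
Rsad2: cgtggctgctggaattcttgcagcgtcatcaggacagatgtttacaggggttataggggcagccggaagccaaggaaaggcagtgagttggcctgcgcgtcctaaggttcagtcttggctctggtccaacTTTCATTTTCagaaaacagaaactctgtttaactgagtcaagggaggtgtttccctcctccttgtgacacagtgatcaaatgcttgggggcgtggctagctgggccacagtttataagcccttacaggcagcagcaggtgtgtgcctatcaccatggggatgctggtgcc
Ifit1: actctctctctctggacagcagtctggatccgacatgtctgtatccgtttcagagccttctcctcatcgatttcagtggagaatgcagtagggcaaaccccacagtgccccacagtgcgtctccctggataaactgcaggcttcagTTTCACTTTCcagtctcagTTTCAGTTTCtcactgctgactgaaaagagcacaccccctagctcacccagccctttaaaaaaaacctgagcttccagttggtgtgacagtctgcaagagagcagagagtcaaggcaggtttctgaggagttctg
Gbp3: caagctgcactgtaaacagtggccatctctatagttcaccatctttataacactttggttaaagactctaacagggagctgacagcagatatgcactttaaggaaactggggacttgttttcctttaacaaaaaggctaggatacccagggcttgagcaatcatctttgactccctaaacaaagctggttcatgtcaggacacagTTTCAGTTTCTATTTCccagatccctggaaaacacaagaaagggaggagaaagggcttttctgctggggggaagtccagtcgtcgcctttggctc

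Genes of peptide loading onto MHC class I, many of them interferon targets, were higher in 10 of 14 tested members and rose on both scales in 6 (15.4% and 3.93% of all genes), namely Psmb8, Psmb9, Psmb10, Psme1, Tap1 and Tapbp. Tap1 was lost with the mean over its probe sets (adjusted p = 0.218). Tapbp (tapasin), which loads peptides onto class I molecules, was the 1 member of the common response, with 1216, 1204 and 1061 on the 3 wild type arrays, 1514, 2131 and 2952 on the Snf5-/- and 1312, 1263, 1431 and 1698 on the Brg1-/- arrays (log2 change 1.02 ± 0.16). Of 26 tested chemokines and targets of NF-kB, 2 rose on both scales, Ccl5 and Cx3cl1, and 2 fell, Ptgs2 and Tnfaip2. The chemokines Cxcl10 and Cxcl11, which also rose in the common response, were not members of this list. Of all genes 3.93% rose and 11.7% fell. Without Snf5-/- array 2, 8 of the 26 were called lower, and 1 without wild type array 2 or 3, where Tnfaip2 was lost. Without Snf5-/- array 1, 5 in place of 3 were called higher, and Cx3cl1 was lost with the mean over its probe sets (adjusted p = 0.397). Ptgs2, the inducible enzyme of prostaglandin synthesis, had 10807, 6937 and 6558 in wild type and 1445, 1905 and 5080.2 in the lowest, middle and highest mutant arrays (log2 change -1.28 ± 0.29).

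**Figure D4:**
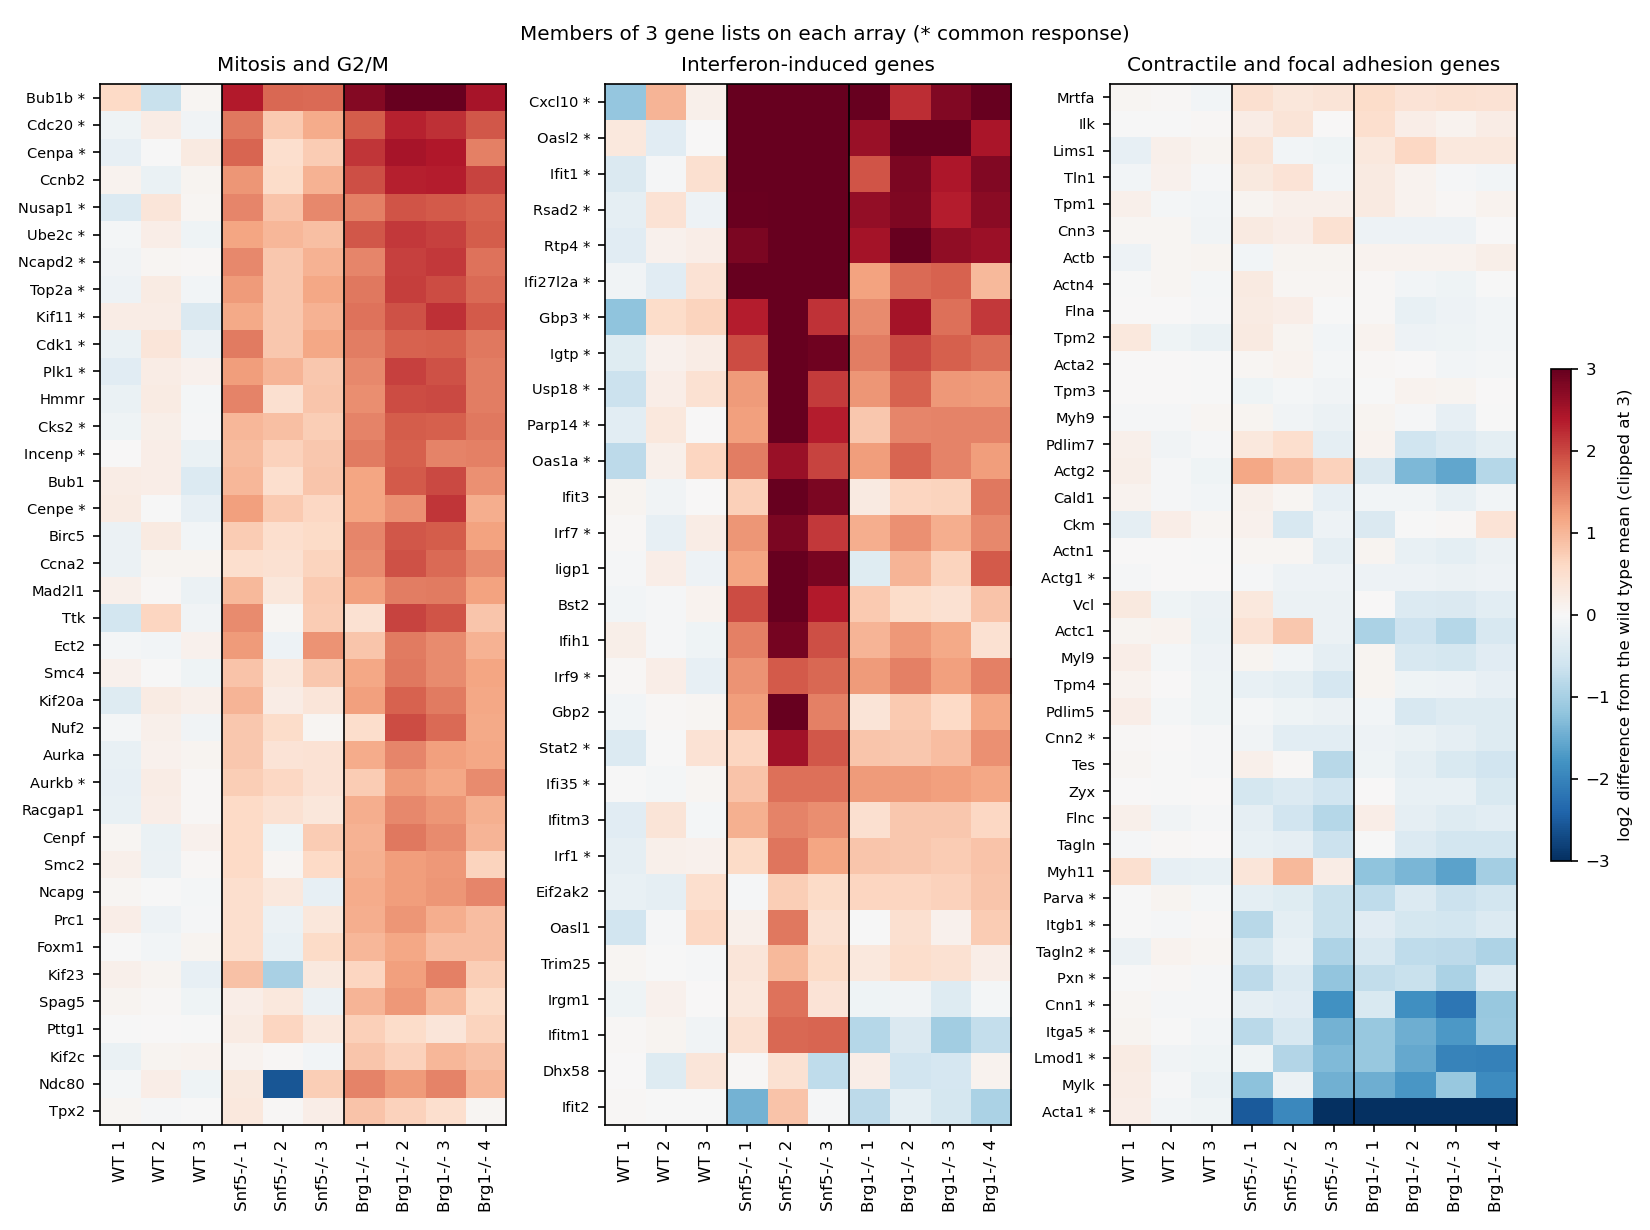
Log2 difference of each array (columns) from the wild type mean for tested members (rows) of the mitosis, interferon and contractile lists, on the quantile-normalized scale, with colours clipped at 3. Stars mark the common response. Mitosis genes are redder in the Brg1-/- columns, interferon genes in the Snf5-/- columns, and Acta1 is the deepest blue among contractile genes.

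Contractile and focal adhesion genes fell in part. Of 39 tested members 13 were lower and 1 higher on the quantile-normalized scale, the 13 fell on both scales, and 10 belonged to the common response. Beside this stand 11.7% of all genes that fell on both scales and 8.93% in the common response. The 10 were the actins Acta1 and Actg1, the actin-binding proteins Cnn1, Cnn2, Tagln2 and Lmod1, the adhesion proteins Pxn and Parva and the integrin chains Itga5 and Itgb1, which pair as the fibronectin receptor. Actg1 had the smallest fall of the common response (-0.14). Several of its mutant arrays shared the same quantile-normalized value, so the size of this fall is coarse. Itga5 had 4415, 3026 and 2685 on the 3 wild type arrays, 1419, 1726 and 1074 on the Snf5-/- and 963.2, 769.1, 732.6 and 1030.0 on the Brg1-/- arrays (log2 change -1.13 ± 0.18, adjusted p = 8.42e-04). Itgb1 had 13653, 11128 and 10927 in wild type and 5352, 5803 and 7246 in the lowest, middle and highest mutant arrays (log2 change -0.53 ± 0.10). Both were dimmer on every mutant array. Acta1 changed most, and the list median was -0.14. Genes of smooth muscle were divided: Cnn1 (-1.10) and Lmod1 (-1.23) were in the common response, Tagln (-0.38) and Mylk (-1.25) fell outside it, and Acta2 (0.01), Myh11 (-0.40) and Actg2 (-0.06) did not pass. Actg2 differed from wild type by 0.93 in Snf5-/- and -1.05 in Brg1-/- cells. Pxn was not called with the mean over its probe sets (adjusted p = 0.0792). In a mixed list of genes of the YAP pathway and the CCN family 4 of 17 fell, beside 11.7% of all genes. They were Ccn2, Axl, Tead2 and Ccn4, of which 2, Ccn2 and Axl, were in the common response. Ccn2 (connective tissue growth factor) had 20425, 16192 and 14999 on the 3 wild type arrays, 6391, 8059 and 6883 on the Snf5-/- and 6157, 3785, 3668 and 4706 on the Brg1-/- arrays, with no overlap (log2 change -1.27 ± 0.15, adjusted p = 1.20e-04). Without wild type array 1 or 2 or Brg1-/- array 3, 2 of the 17 were lower, with Tead2 and Ccn4 lost.

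Promoters of contractile genes are known for CArG boxes, bound by serum response factor. A CArG box, on either strand, was in 6 of 41 windows of tested members (14.6%) and 1.38% of windows of tested genes, and in 4.27% and 2.58% of windows of genes that rose and fell in the common response. The windows of the 3 members of the common response that hold one are shown with the box in capitals. Their log2 changes were -3.23 for Acta1, -0.25 for Cnn2 and -0.14 for Actg1. They lie at chr8:123894726-123895025 (minus strand), chr10:79988350-79988649 (plus strand) and chr11:120348446-120348745 (minus strand).
Acta1: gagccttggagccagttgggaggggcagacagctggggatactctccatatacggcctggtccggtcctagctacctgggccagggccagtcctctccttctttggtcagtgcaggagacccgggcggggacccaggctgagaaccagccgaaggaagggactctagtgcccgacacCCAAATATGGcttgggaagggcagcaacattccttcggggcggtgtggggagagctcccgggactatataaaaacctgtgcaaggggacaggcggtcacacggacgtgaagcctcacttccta
Cnn2: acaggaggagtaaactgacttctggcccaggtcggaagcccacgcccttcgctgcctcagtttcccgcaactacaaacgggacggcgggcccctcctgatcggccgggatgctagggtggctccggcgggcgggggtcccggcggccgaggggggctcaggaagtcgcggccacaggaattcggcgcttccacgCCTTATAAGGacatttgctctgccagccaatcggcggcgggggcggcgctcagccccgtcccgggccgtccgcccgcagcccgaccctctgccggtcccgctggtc
Actg1: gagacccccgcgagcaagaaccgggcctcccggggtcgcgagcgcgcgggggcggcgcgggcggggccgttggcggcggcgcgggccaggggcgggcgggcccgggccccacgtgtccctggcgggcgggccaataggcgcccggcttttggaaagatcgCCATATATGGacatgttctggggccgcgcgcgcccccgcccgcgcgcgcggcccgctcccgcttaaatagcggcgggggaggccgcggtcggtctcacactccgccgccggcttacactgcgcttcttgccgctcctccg

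**Figure D5:**
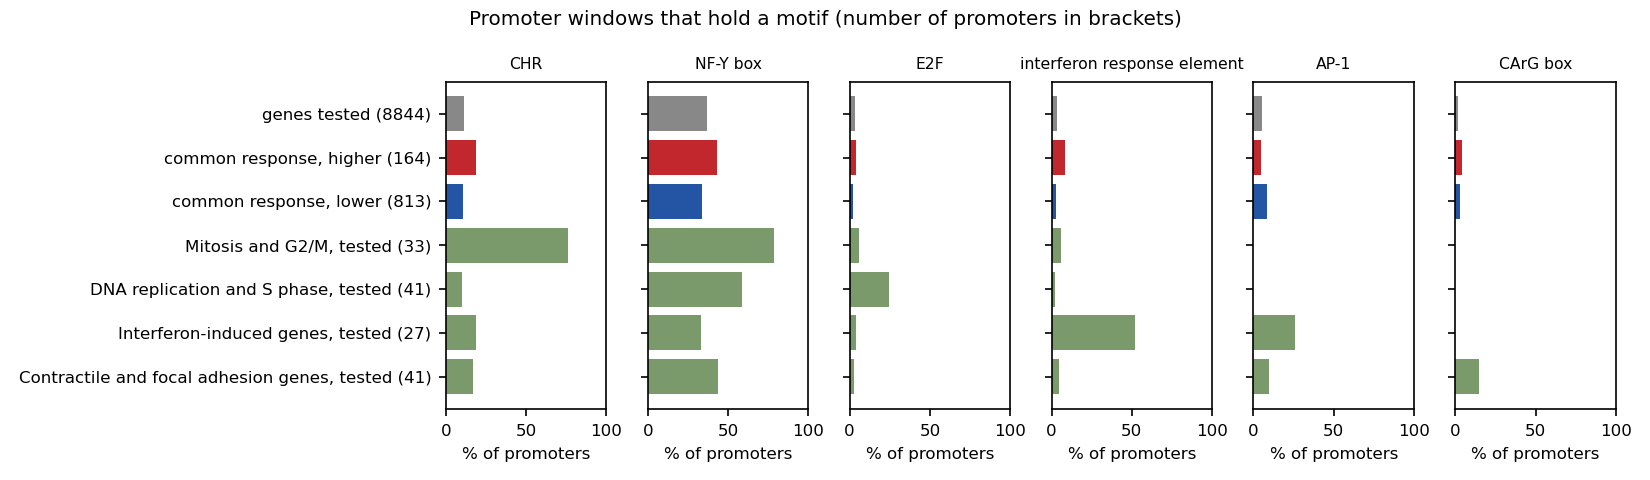
Percent of promoter windows (x axis) that hold each motif, for all genes tested (grey), the common response (red, higher; blue, lower) and tested members of 4 lists (green), with the number of windows in brackets. The CHR element peaks in mitosis genes (75.8%), the interferon response element in interferon genes (51.9%), E2F in S phase genes (24.4%) and the CArG box in contractile genes (14.6%).

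Some markers of epithelial and mesothelial cells fell, beside 11.7% of all genes that fell and 3.93% that rose. Of 9 tested epithelial and keratinocyte markers (20 on the array) 4 fell, namely Dsp, Lce1h, Cldn4 and Krt18, and Cdh3 rose, while Krt5, Krt8, Krt19 and Sprr1a did not pass. The summed intensity of the list was 5272.5 to 8695.8 on wild type, 2349.4 to 2990.3 on Snf5-/- and 1879.4 to 2225.0 on Brg1-/- arrays. Lce1h made up most of that sum in wild type, and without it the ranges were 1930.6 to 3196.7, 1803.0 to 2421.3 and 1392.8 to 1652.6, so that Snf5-/- and wild type overlapped. The defining markers Epcam, Krt15 and Ivl were at background on all 10 arrays. Of 3 tested mesothelial markers (9 on the array) Msln and Upk3b fell and Krt19 did not pass, and the sum was 1464.7 to 2136.2 on wild type, 772.5 to 1064.5 on Snf5-/- and 607.1 to 838.0 on Brg1-/- arrays. Msln (mesothelin) had 523.3, 397.1 and 425.7 on the 3 wild type arrays, 65.3, 47.6 and 50.4 on the Snf5-/- and 48.9, 22.3, 43.2 and 47.9 on the Brg1-/- arrays (log2 change -2.92 ± 0.29, adjusted p = 2.43e-05). Msln was above the median intensity of an array only in wild type, so this adjusted p is no independent support for the fall. Dsp, the plaque protein of desmosomes, had 488.6, 226.1 and 242.6 in wild type and 11.3, 19 and 49.6 in the lowest, middle and highest mutant arrays. With any 1 of the wild type arrays left out, 2 epithelial markers and 1 mesothelial marker were called lower, and without Snf5-/- array 3 also 1 mesothelial marker. Cldn4 and Upk3b were lost in each of these fits. Skeletal muscle markers summed to 6527.5 to 10886.4 on wild type, 1558.9 to 2610.3 on Snf5-/- and 1109.3 to 1290.1 on Brg1-/- arrays, and without Acta1, the brightest, to 1734.0 to 2078.1, 1119.1 to 1475.5 and 779.9 to 1005.7. Of 6 tested Acta1 was the 1 that fell, and Myf5, Myf6, Myh8, Tnnt1 and Tnnc2 were at background on every array. Of 5 tested endothelial markers Cd34, Kdr and Eng fell and Tek rose, with Tie1, Vwf and Erg at background throughout. Kdr was lost without wild type array 3 and Eng with the mean over its probe sets (adjusted p = 0.0918). The part of a change in cell types in the falls of Msln, Dsp, Perp, Lce1h and Crct1 was not tested.

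Other cell type lists also moved in part, beside 3.93% of all genes that rose and 11.7% that fell. Neural and glial markers fell in 3 of 9 (Gap43, Map2 and Nes), cartilage and bone markers rose in 2 of 7 (Matn4 and Col2a1), and of 4 adipocyte markers Fabp4 fell. The neural and glial markers summed to 4632.3 to 6164.4 on wild type, 3168.9 to 3991.6 on Snf5-/- and 2417.8 to 3019.7 on Brg1-/- arrays. On the quantile-normalized scale the sums of wild type (4023.3 to 4721.83) and Snf5-/- arrays (2904.39 to 4178.64) overlapped. Fabp4 was lost without any 1 of the wild type arrays, Map2 without wild type array 3 and Col2a1 without wild type array 2. Of the 16 fibroblast markers Pdgfra and Col3a1 rose and S100a4 and Twist2 fell. Pdgfra was lost without wild type array 1 or 2 and Twist2 in 8 of the 20 alternatives, and 1 marker was called higher without wild type array 1 and 5 without Brg1-/- array 1. S100a4, a calcium-binding protein of motile fibroblasts, was the 1 in the common response, with 17442, 20918 and 19579 on the 3 wild type arrays, 9815, 3158 and 8222 on the Snf5-/- and 1709, 2634, 3043 and 3270.3 on the Brg1-/- arrays (log2 change -1.94 ± 0.28, adjusted p = 3.70e-04).

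The extracellular matrix changed in both directions. Among 30 tested genes of elastic fibres and matricellular proteins 8 rose and 6 fell on both scales, beside 3.93% and 11.7% of all genes. In the common response were 4 and 3, beside 1.96% and 8.93%. Fbln5, which assembles elastin on microfibrils, had 3992, 3380.2 and 2696 on the 3 wild type arrays, 7840.1, 7440.1 and 6719.7 on the Snf5-/- and 7160.2, 6448, 7120.0 and 6257 on the Brg1-/- arrays. All mutant arrays were above all wild type arrays (log2 change 1.57 ± 0.08, adjusted p = 7.46e-07, difference 0.12 with a 95% interval from -0.08 to 0.31). Ogn (osteoglycin) had 814.3, 652.1 and 689.4 in wild type and 1964, 2543 and 3556 in the lowest, middle and highest mutant arrays (log2 change 2.31 ± 0.14), and Fbn2, the microfibril protein of embryonic tissue, had 214.7, 268.5 and 264.8 and 758.9, 887.1 and 1181 (log2 change 2.21 ± 0.14). Efemp1, a fibulin, went the other way, with 4128, 2414 and 2757 on the 3 wild type arrays, 917.9, 695.6 and 895.5 on the Snf5-/- and 275.5, 353.4, 398.5 and 356.1 on the Brg1-/- arrays. It fell further in Brg1-/- cells (log2 change -2.05 ± 0.12, difference -1.10, adjusted p = 0.00166). Without wild type array 2 or 3, or Brg1-/- array 2, 3 genes of the list were called lower. Of 24 collagens 5 rose and 2 fell (Col4a5 was lost without any 1 of the wild type arrays), beside the same 3.93% and 11.7%. The 2 falls were no more than the share of all genes. Col11a1, a chain of fibril-nucleating type XI collagen, was the rise of the common response, with 1105, 599.7 and 597.2 on the 3 wild type arrays, 3276, 3472 and 4259 on the Snf5-/- and 2573, 1713, 2361 and 2114 on the Brg1-/- arrays (log2 change 2.36 ± 0.13, adjusted p = 9.21e-07).

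Of 21 tested proteases and their inhibitors 7 fell and 1 rose on both scales, beside 11.7% and 3.93% of all genes, and 5 were in the common response: Serpinb2, Mmp13, Mmp16, Timp2 and Plaur. Plaur, the receptor of the urokinase plasminogen activator, had 2069, 1482 and 1477 on the 3 wild type arrays, 536.0, 456.3 and 593.0 on the Snf5-/- and 591.9, 300.9, 312.0 and 566.1 on the Brg1-/- arrays (log2 change -1.39 ± 0.21, adjusted p = 5.24e-04). Mmp13, a collagenase, had 597.0, 770.1 and 495.2 on the 3 wild type arrays, 63.6, 222.1 and 451.9 on the Snf5-/- and 33.4, 39.3, 5.9 and 63.8 on the Brg1-/- arrays, so that 1 Snf5-/- array came close to wild type. Timp2, an inhibitor of such enzymes, had 21667, 19841 and 20327 in wild type and 8455, 10296 and 11625 in the lowest, middle and highest mutant arrays (log2 change -0.79 ± 0.09). Without wild type array 2 or 3 the count of falls in this list was 3 or 4, and Mmp13 lost significance without wild type array 2 (adjusted p = 0.0501).

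Immediate early genes changed in both directions. Of 24 tested, Fos, Egr1 and Egr2 rose and Maff and Fosl1 fell, all 5 in the common response. That response held 1.96% of all genes as rises and 8.93% as falls, so the 2 falls were no more than the share of all genes. Fos had 236.0, 224.4 and 235.2 on the 3 wild type arrays, 447.6, 379.6 and 723.2 on the Snf5-/- and 939.5, 1006, 1259 and 869.9 on the Brg1-/- arrays, in that order without overlap (log2 change 1.97 ± 0.15, difference 1.24, adjusted p = 0.00287). Egr1, a zinc finger factor of the serum response, had 1468, 1188 and 556.1 in wild type and 1745, 2051 and 2509 in the lowest, middle and highest mutant arrays (log2 change 1.54 ± 0.18). Maff, a small Maf protein, had 1042, 870.5 and 747.0 in wild type and 185.4, 226.2 and 324.5 in the mutants (log2 change -1.53 ± 0.17). Ligands of the EGF receptor and feedback genes of MAPK signalling had 6 of 15 lower, beside 11.7% of all genes, and Spry1 higher. Ereg (epiregulin) had 1404, 1058 and 888.3 on the 3 wild type arrays, 416.5, 509.1 and 497.7 on the Snf5-/- and 260.3, 261.5, 247.3 and 281.6 on the Brg1-/- arrays (log2 change -1.23 ± 0.11, adjusted p = 1.32e-05), and Hbegf, Etv4 and Spry2 were also in the common response with -0.63, -1.22 and -0.37. Without wild type array 1, 2 or 3 the 6 became 1, 2 and 3. Hbegf was lost in each of these fits, Spry2 without wild type array 1 or 2 and Etv4 without wild type array 1. Spry2 was also lost with the mean over its probe sets, and Hbegf without the intensity trend. AP-1 sites (TGANTCA, on either strand) were in 8.12% of windows of genes that fell in the common response, 4.88% of those that rose and 5.39% of those tested.

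Genes of morphogen pathways changed singly, beside 3.93% of all genes that rose and 11.7% that fell. Of 9 Hedgehog genes Gas1 was the 1 that passed on both scales. Of 29 Wnt genes 4 rose and Fzd7 fell (lost without wild type array 1). In the common response were Wnt16, Fzd7 and the receptor Fzd2. Fzd2 had 1301, 864.4 and 1035 in wild type and 1356, 1719.7 and 2284 in the lowest, middle and highest mutant arrays (log2 change 1.19 ± 0.11). Of 32 genes of TGF-beta and BMP signalling 2 rose (Tgfb3 and Bmp6) and 6 fell. Grem1, a secreted BMP antagonist, had 10817, 8222 and 7232 on the 3 wild type arrays, 2318, 3042 and 1738 on the Snf5-/- and 1683, 1495, 1933 and 2995 on the Brg1-/- arrays, with all mutant arrays well below wild type (log2 change -1.54 ± 0.22, adjusted p = 3.73e-04). The falls numbered 2 without wild type array 2 and 3 without wild type array 3.

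Among 16 imprinted genes tested, 4 rose and 4 fell, beside 3.93% and 11.7% of all genes. Mest, Meg3 and Dlk1 rose and Peg3, Ndn and Impact fell in the common response. Dlk1, a Notch-like inhibitor of fat cell formation, had 1897, 1538 and 1778 on the 3 wild type arrays, 7926, 3162 and 15213 on the Snf5-/- and 3668, 6063, 7056 and 7193 on the Brg1-/- arrays, and Meg3, the noncoding RNA of the same cluster expressed from the other parental allele, had 3941, 3013 and 2792, 8934, 5173 and 9941 and 6521, 5439.8, 5842 and 7868. Their log2 changes were 2.35 ± 0.34 and 1.61 ± 0.15, with differences between the genotypes of -0.07 (95% interval -0.89 to 0.74) and -0.02 (-0.39 to 0.35). Mest had 303.4, 256.2 and 196.4 in wild type and 498.6, 743.0 and 1682 in the lowest, middle and highest mutant arrays (log2 change 2.14 ± 0.19). Peg3, a zinc finger protein, had 4095, 2634 and 2602 in wild type and 666.5, 1003 and 1275 in the mutants (log2 change -1.11 ± 0.12, adjusted p = 6.38e-05).

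Targets of p53 were not a uniform group. Of 28 tested 5 rose and 2 fell on both scales, beside 3.93% and 11.7% of all genes, and Perp was the 1 member of the common response. Perp, a p53 target that is also a desmosomal protein of epithelia, had 1778, 930.8 and 982.2 on the 3 wild type arrays, 244.1, 190.4 and 258.6 on the Snf5-/- and 201.8, 97.7, 145.4 and 215.1 on the Brg1-/- arrays and fell (log2 change -2.22 ± 0.21, adjusted p = 2.12e-05), the opposite of Btg2 (1.68) and Bbc3 (1.55), which rose but overlapped wild type on at least 1 scale.

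Of 28 glycolysis and hypoxia genes 8 fell, beside 11.7% of all genes, and Slc2a3 rose, and the common response held Pgam1, Hk1, Aldoa and Pfkp. Pgam1 (phosphoglycerate mutase) had 11408, 10096 and 8714 in wild type and 3578, 4514 and 4873 in the lowest, middle and highest mutant arrays (log2 change -0.73 ± 0.08, adjusted p = 4.00e-05). Of 27 genes of the NRF2 and glutathione system 7 fell (the same 11.7% applies) and Gstm1 rose. Mgst1, a membrane glutathione transferase, fell, with 3112, 2523 and 2705 in wild type and 447.6, 696.0 and 1264 in the mutants (log2 change -1.35 ± 0.24), but was lost with the mean over its probe sets (adjusted p = 0.147). Tkt, transketolase, changed by -0.82 ± 0.12. This list had 4 lower calls without wild type array 3. Of 37 genes of the unfolded protein response 8 fell, again beside 11.7%, and none rose, with Canx, Vldlr and Sdf2l1 in the common response. Vldlr was lost with the mean over its probe sets (adjusted p = 0.323) and Sdf2l1 without wild type array 2 or 3. The glycolysis falls numbered 4 without wild type array 2 or Snf5-/- array 1 and 5 without wild type array 1 or 3 or Brg1-/- array 3, and the unfolded protein response falls 4 without wild type array 3 and 5 without wild type array 2. Sterol and fatty acid synthesis had 2 rises (Pmvk and Mvk) and 3 falls among 29, beside 3.93% and 11.7% of all genes. In this list 1 was called lower without wild type array 1 or 2 and 8 without Snf5-/- array 2. Among 31 MYC and ribosome biogenesis genes Cad, which starts pyrimidine synthesis, was the 1 that rose (log2 change 1.09 ± 0.08), beside 3.93% of all genes.

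For large housekeeping complexes the direction depended on the scaling. Of 46 tested genes of oxidative phosphorylation, 12 were higher and none lower on the quantile-normalized scale, and none were higher and 18 lower on the deposited scale. The 12 became 6 without wild type array 1 or 2. Of all genes 15.4% were higher and 11.7% lower on the first scale, and 3.95% and 37.4% on the second. Of 31 proteasome subunits, 3 were higher and 2 lower on the first and none higher and 23 lower on the second. Psma7, the other lower call of the first, was lost in 9 of the 20 alternatives. Psmd8, a lid subunit, was the 1 proteasome gene in the common response, with 10289, 8164 and 8416 on the 3 wild type arrays, 2692, 3858 and 3436 on the Snf5-/- and 2885, 2274, 2839 and 3271 on the Brg1-/- arrays (log2 change -1.06 ± 0.13, adjusted p = 1.08e-04). The genotypes differed by 0.03, with a 95% interval from -0.28 to 0.33.

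Of 19 tested SWI/SNF subunits Arid1a, the DNA-binding subunit of the canonical complex, rose and Bcl7b fell in the common response, which held 1.96% and 8.93% of all genes. Bcl7b was lost without wild type array 1 or 2. Arid1a had 1516, 1079 and 935.9 on the 3 wild type arrays, 2137, 1875 and 2593 on the Snf5-/- and 1798, 1825, 1996 and 1769.7 on the Brg1-/- arrays. The log2 change was 1.24 ± 0.08 (adjusted p = 1.42e-06), and the genotypes differed by 0.00 with a 95% interval from -0.19 to 0.19. Of 29 Polycomb and DNA methylation genes Rnf2, the catalytic ubiquitin ligase of PRC1, was the 1 in the common response, with 1022, 654.3 and 654.6 in wild type and 1109, 1282 and 2228 in the lowest, middle and highest mutant arrays (log2 change 1.26 ± 0.14). Of 19 Hox genes none passed on both scales, and 3 were higher on the quantile-normalized scale (1 without wild type array 2 or 3), beside 15.4% of all genes.

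How alike the genotypes were was read from the direct contrast of Brg1-/- with Snf5-/- arrays. The wild type means do not enter it, but the wild type arrays share in the scaling, the filter and the estimate of the spread. Over all genes 373 differed (4.44%), 180 higher and 193 lower in Brg1-/- cells, and on the deposited scale 31 and 330. Of the common response 23 of 165 rises (13.9%) and 33 of 750 falls (4.40%) differed. Brg1-/- cells were further from wild type in 16 of the 23 and 25 of the 33. For the rises that did not differ the 95% interval reached a median of 0.44 to either side, and in 99 of the 165 rises and 662 of the 750 falls the whole interval lay within 1 log2 unit of 0. That bound is wider than the median change of the falls (-0.65), so it does not show that falls were alike in size. Cbln1, a secreted organizer of synapses, had 73.5, 61.7 and 74.9 on the 3 wild type arrays, 155.4, 118.0 and 245.6 on the Snf5-/- and 347.4, 389.0, 448.3 and 359.8 on the Brg1-/- arrays, in 3 separate steps (difference 1.40, adjusted p = 0.00501). Rnf128, a ubiquitin ligase, fell further in Brg1-/- cells, from 1593, 905.4 and 753.2 in wild type to 366.7, 496.1 and 240.2 in Snf5-/- and 162.2, 120.7, 97.2 and 133.3 in Brg1-/- cells (difference -1.34, adjusted p = 0.025). Gng11, a G protein gamma chain, and Mgat4b, a glycosyltransferase, did likewise (differences -1.20 and -1.26). Pdpn (podoplanin), a glycoprotein of fibroblasts and mesothelium, fell further in Snf5-/- cells, from 7473, 8256 and 6459 in wild type to 1329.8, 897.7 and 2142, against 1849.6, 2739.8, 3334 and 3343 in Brg1-/- cells (difference 1.26, adjusted p = 0.0139). The count of 373 was 121 without Brg1-/- array 3, 137 without Brg1-/- array 2, 200 without Snf5-/- array 2, and 233 and 239 without wild type arrays 2 and 3.

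Some of the largest pooled changes were not common because arrays of the groups overlapped. Sfrp2, a secreted Wnt antagonist, had 606.2, 757.1 and 669.8 on the 3 wild type arrays, 2951, 647.5 and 6845 on the Snf5-/- and 2902, 2143, 3106 and 4042 on the Brg1-/- arrays (log2 change 2.39 ± 0.49, adjusted p = 0.00399). Snf5-/- array 2 was at wild type level and the other 6 mutant arrays were high. Mmp3 (stromelysin) had 940.1, 1867 and 1699 on the 3 wild type arrays, 115.0, 1062 and 936.6 on the Snf5-/- and 64.3, 110.9, 122.1 and 397.2 on the Brg1-/- arrays, where Snf5-/- array 2 again lay within the wild type range. Itpkb, an inositol phosphate kinase, changed by 2.32 ± 0.43 with wild type array 1 high. Xist, the RNA that coats the inactive X chromosome, had 2575, 182.5 and 1550.3 on the 3 wild type arrays, 3539, 3068 and 3476 on the Snf5-/- and 1783, 2482, 2182 and 4477 on the Brg1-/- arrays (log2 change 2.15 ± 0.57). Wild type array 2 was far below the other wild type arrays, and without it the change was 1.06 (adjusted p = 0.0186).

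Genes of the common response lay outside the 37 lists in 106 of 165 rises and 687 of 750 falls. Some were neighbours in the genome. In 13 places 3 or more genes of the common response in the same direction followed each other within 200 kb. All 13 were of falls, of which there are 750 against 165 rises, and no count by chance was made. Lce1f, Lce1h and Lce1i of the epidermal differentiation complex stand together. Lce1h and Lce1i had log2 changes of -2.58 and -1.52, and the size for Lce1f is not settled, with 6 of 7 mutant arrays at background. They are near copies, so their probe sets may share signal. Gpnmb has Tmem176a and Tmem176b, a pair of membrane protein genes, beside it, with changes of -1.65 and -2.44. Cryab and Hspb2, small heat shock protein genes that start back to back, changed by -0.97 and -0.60.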

How the data were processed

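The 10 arrays fall into 3 groups. RNA was measured on Affymetrix arrays, and the deposited intensities are MAS5 signals made by the authors, per the submitters' processing notes; their MAS5 version and scaling target are not given in the sources used here. From 22690 probe sets, 64 controls were left out, and 20380 carried 1 gene symbol, 691 several and 1555 none. The brightest probe set stood for its gene. Genes at or above the 40th percentile on at least 3 arrays were kept. The authors deposited linear intensities; log2 values were computed here, with and without quantile normalization. Genotype means were fitted with limma (3.58.1, R 4.3.3; trend, 7 residual degrees of freedom), and the pooled contrast was the mean of both mutant means minus wild type, with Benjamini-Hochberg adjustment at 0.05. Array measures used exact permutation tests (scipy 1.17.1, Python 3.11.15). No depth exists for arrays; their number limits the precision. Named genes were Smarcb1 and Smarca4, the 15 common rises and 15 common falls with the largest smaller change of the genotypes, up to 4 members of each list by pooled adjusted p with the common response first, 3 genes in each direction that passed but overlapped, and 3 in each direction of the common response with the largest difference between the genotypes. Bub1b, Csf1r, Lyz2, Actg2, Acta2, Myh11, Tagln, Mylk, Cnn1, Lmod1, Cnn2, Actg1, Mapk13, C1ra, the sex chromosome transcripts and the neighbouring genes fall outside it and were chosen after their values were seen. Gene lists (28 of pathways, 9 of cell type markers), members and tests were chosen with earlier results of these data known. Alternatives were the deposited scale, division by the median, 7 arrays as 1 group, no or a stricter filter, a pseudocount of 16, no trend, the mean of probe sets, array weights, a replicate block and each array left out. The fit was tested on simulated data. Marker sums without their largest member were added after seeing the data.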

Additional observations from a re-analysis of the deposited data

Results flagged for a closer look

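In the 4 Brg1-/- arrays 1 array stood apart from the other 3 in 9 of the 167 named genes, on the quantile-normalized log2 scale, where its gap to the nearest array exceeded 0.829 of the range of the group (Dixon's limit for 4 values). Chance flags about 1 in 20 groups. The gap was 0.833 of the range for Smarcb1, 0.871 for Smarca4, 0.964 for Tapbp, 0.876 for Tap1, 0.891 for Cdkn2d, 0.887 for Timp2, 0.901 for Bcl7b, 0.854 for Phc1 and 0.958 for Pdgfra.

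The direct contrast of the genotypes passed in 30 named genes on the quantile-normalized scale, given here as the log2 level in Brg1-/- minus that in Snf5-/- cells. The targeted genes had 1.82 (Smarcb1) and -2.47 (Smarca4). Cell cycle genes were higher in Brg1-/- cells, with 0.94 for Ube2c, 0.79 for Cks2, 0.75 for Top2a, 0.77 for Incenp, 1.12 for Cenpa, 0.78 for Pold1, 1.20 for Pold2 and 0.91 for Uhrf1. Immune genes were lower there, with -2.65 for Cxcl10, -1.71 for Oasl2, -3.14 for Ifi27l2a, -2.18 for Ifit1 and -0.998 for Psmb10. Fos had 1.24, Cbln1 1.40, Hoxd13 1.08, Pdpn 1.26, Slc6a6 0.66 and Gnb4 0.54. Lower in Brg1-/- cells were Cdkn1c (-1.52), Ereg (-0.70), Col18a1 (-1.86), Efemp1 (-1.10), Nupr1 (-1.18), Gstm2 (-1.09), Rnf128 (-1.34), Mgat4b (-1.26) and Gng11 (-1.20). On the deposited scale the difference did not pass for Cks2, Top2a, Incenp, Cenpa, Pold1, Uhrf1, Hoxd13, Slc6a6 and Gnb4, with adjusted p from 0.0519 (Cenpa) to 0.262 (Gnb4).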

How the results depend on the processing

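On the deposited scale the pooled contrast called 332 genes higher and 3144 lower in place of 1290 and 986, and 2028 falls had no overlap in place of 750 in the common response. The contrast between the genotypes called 195 genes without the intensity trend and 234 with the mean of probe sets in place of 373; it has no value with the 7 mutant arrays as 1 group. Leaving out each array gave 826 to 1406 higher and 609 to 1037 lower calls in the pooled contrast, 159 to 281 and 580 to 858 in the common response, and 121 to 492 differences between the genotypes. In the 100 bases before the start, TTTGAA was in 21.2% of mitosis windows (75.8% in the whole window) beside 3.18% for all tested genes, and the interferon element in 22.2% of interferon windows (51.9%) beside 0.814%. E2F sites were in 2.44% of S phase windows there (24.4%) beside 1.09%, and CArG boxes in 9.76% of contractile windows (14.6%) beside 0.565%. The subunits Atp5o, Atp5l, Atp5d and Psmb4 turned from 0.34, 0.41, 0.27 and 0.37 to -0.18, -0.11, -0.24 and -0.15 on the deposited scale, whose median for all genes was -0.37. With the replicate number as a block the pooled contrast gave 1277 higher and 983 lower calls, the common response 160 and 718, and the genotypes differed in 462 genes. Same-numbered arrays correlated between -0.07 and 0.10, with 1 of 9 pairs over 0.1 and 3 of 9 arrays closest to their own number. Whether same-numbered arrays share more than a number cannot be told from so few arrays. Signal near background limits the size of changes of dim genes.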
